A study of Homo sapiens with 6 samples.

Results

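The cytosolic ribosomal protein genes encode the proteins of the small and the large subunit of the ribosome that translates nuclear mRNAs. They were taken as the autosomal protein-coding genes of RefSeq whose symbol is RPL or RPS followed by digits and optional A or L letters, together with RPLP0, RPLP1, RPLP2 and RPSA. Kinases of the RPS6K group, RPS19BP1 and readthrough genes were not included. This gave 78 genes of 19126 autosomal protein-coding genes, on 20 chromosomes. The rule used names only and no measured value. Of the 78, 43 encode large-subunit proteins, 30 encode small-subunit proteins, and 5 are L-suffixed paralogs (RPL3L, RPL10L, RPL36AL, RPL39L and RPS27L).

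Binding of JUNB and of FOSL2 was measured by chromatin immunoprecipitation and sequencing in HaCaT cells, a spontaneously immortalised human skin keratinocyte line grown in serum-containing medium. No treatment is given in the labels. Both groups were the same cell line and differed in the antibody, with 3 libraries for JUNB (antibody from Active Motif) and 3 for FOSL2 (antibody labelled CST). Libraries were made by ChIPmentation, which attaches the sequencing adapters with a transposase while the chromatin is still bound to the antibody. The 3 libraries of a factor are represented by 1 deposited list, with 39317 regions for JUNB and 73751 for FOSL2 on the autosomes. Depth per library is unknown, and no value below has a replicate error or a test, because no spread between libraries can be computed from 1 list per factor. Fold enrichment is the authors' linear ratio of signal over background in a region, and values of JUNB and FOSL2 are given side by side without being compared in level. As a check of the labelled cell type, each of 6 keratinocyte marker genes (KRT5, KRT14, KRT15, TP63, ITGB4 and COL17A1) had both factors within 10 kb, as did 52.0% of all protein-coding genes. Within 1 kb, 3 of the 6 had both and TP63 had neither. Bound regions do not measure expression, so this is a weak check.

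JUNB and FOSL2 are subunits of AP-1, a dimeric transcription factor that binds the sequence TGANTCA and, with some partners, the cAMP response element TGACGTCA. Ribosomal protein genes are short, highly transcribed and active in nearly all cells. Their transcripts typically start in a run of pyrimidines, the 5′ terminal oligopyrimidine (TOP) tract, through which the mTOR pathway controls their translation. Many hold small nucleolar RNA (snoRNA) genes in their introns. Here the genes had a median length of 4905 bp, against 24476.5 bp for all protein-coding genes, and 27 of the 78 held at least 1 annotated snoRNA gene.

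Regions of both factors lay close to an end at a larger share of the ribosomal protein genes than of all protein-coding genes. For JUNB, 41 of 78 genes (52.6%) had a region reaching within 1 kb of an end, against a background of 30.2% of all autosomal protein-coding genes. For FOSL2 the count was 36 of 78 (46.2%), against 31.9%. Both factors were found there at 27 genes (34.6%, background 19.1%), JUNB without FOSL2 at 14 (17.9%, background 11.2%) and FOSL2 without JUNB at 9 (11.5%, background 12.8%). The remaining 28 genes were without a region that close. Within the members' interquartile range of length (3276.25 to 7216 bp), a comparison added after the data were seen, 23 of 38 ribosomal protein genes (60.5%) had JUNB within 1 kb, against 29.1% of 2105 genes, and 21 (55.3%) had FOSL2, against 32.4%. These shares describe 1 list per factor and were not tested.

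By class of region, 24 genes (30.8%, background 17.3%) had a shared region within 1 kb, meaning a JUNB region with at least 1 bp in common with a FOSL2 region. A JUNB-only region was found at 18 genes (23.1%, background 14.5%) and a FOSL2-only region at 14 (17.9%, background 15.8%). The FOSL2-only share was thus the one nearest its background. Counted as regions, 18 were JUNB-only, 26 shared and 16 FOSL2-only, so 30.0% were JUNB-only, against 30.1% of the regions within 1 kb of all protein-coding genes and 10.3% of all autosomal regions. The shared class took 43.3% at ribosomal protein genes and 35.9% at all genes, and the FOSL2-only class 26.7% and 34.0%.

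Within 10 kb, 60 genes (76.9%, background 57.5%) had a JUNB region and 62 (79.5%, background 71.5%) had a FOSL2 region. Either factor was found at 68 (87.2%, background 77.0%), both at 54 (69.2%, background 52.0%), JUNB without FOSL2 at 6 (7.69%, background 5.5%) and FOSL2 without JUNB at 8 (10.3%, background 19.5%). Shared regions lay within 10 kb of 45 genes (57.7%, background 44.3%), JUNB-only regions of 28 (35.9%, background 27.2%) and FOSL2-only regions of 42 (53.8%, background 53.0%). Close to the limit of 1 kb, RPL22 had its nearest FOSL2 region at 968 bp and RPS12 at 1054 bp, while for JUNB RPL27A was the last inside at 612 bp and RPL3L the first outside at 1109 bp. Among the 10000 regions of highest fold enrichment in each list the order within 10 kb turned: 10.3% of the ribosomal protein genes had such a JUNB region within 10 kb, against 15.3% of all genes, and 8.97% such a FOSL2 region, against 14%. Within 1 kb, 4 of 78 genes had such a JUNB region, a share of 5.13% and near the 3.85% of all genes. The FOSL2 share was 0.0%, against 2.9%. At the limit of 10 kb, RPLP1 (JUNB, 9830 bp) and RPS2 (FOSL2, 8922 bp) were just inside, and RPL7A (JUNB, 11588 bp) and RPL23A (FOSL2, 10719 bp) just outside.

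**Figure D1:**
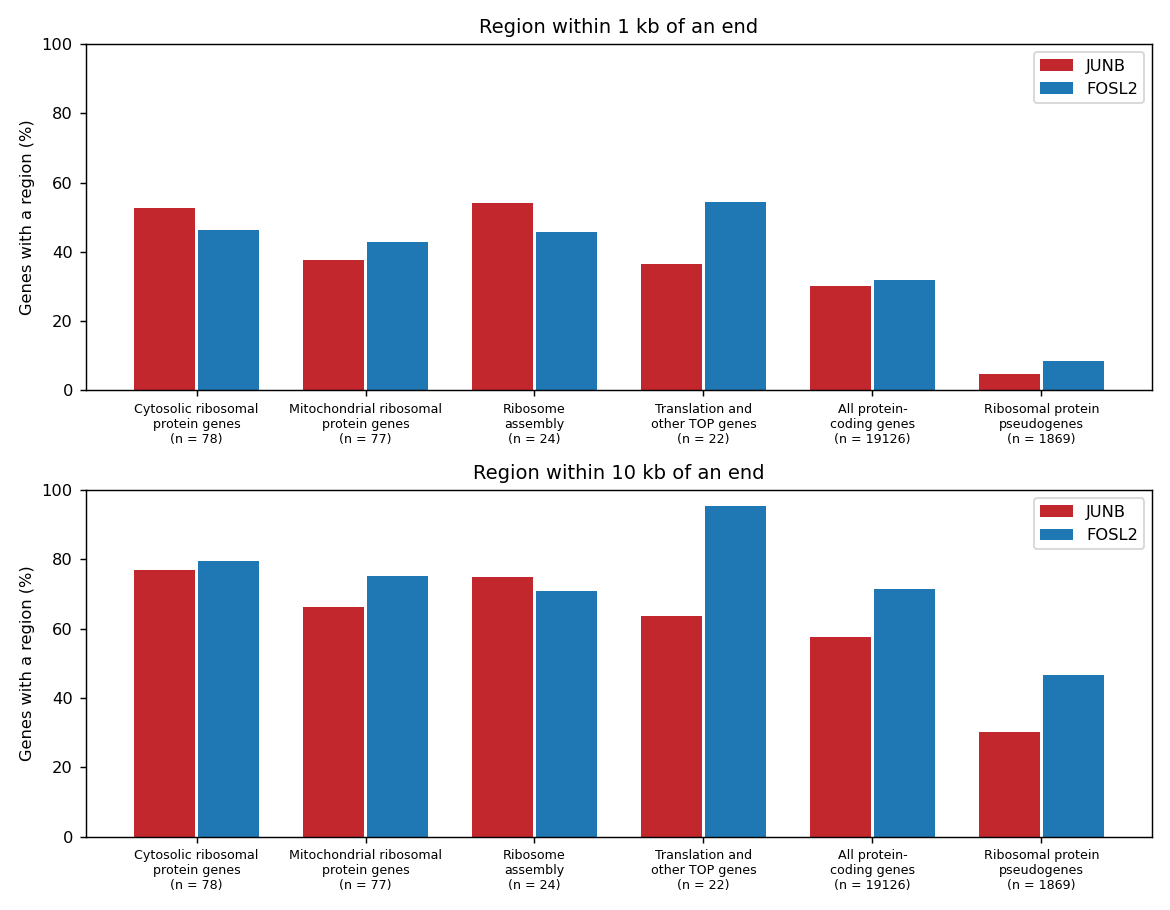
Percentage of genes with a JUNB region (red) or a FOSL2 region (blue) within 1 kb (upper panel) and 10 kb (lower panel) of either end, for 6 sets of genes, with the number of genes under each name. Within 1 kb, cytosolic ribosomal protein genes stand at 52.6% for JUNB and 46.2% for FOSL2, against 30.2% and 31.9% of all protein-coding genes and 4.76% and 8.51% of ribosomal protein pseudogenes.

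The promoter table gave the strand of 61 of the 78 genes. The other 17 were without an entry. Taken by factor, binding was mostly at the 5′ end, both here and over all genes with a strand. A JUNB region lay within 1 kb of the 5′ end at 30 of 61 genes (49.2%, background 28.2% of 15101 genes with a strand). Within 1 kb of the 3′ end, 6 genes had one (9.84%, background 5.62%). For FOSL2 the counts were 23 at the 5′ end (37.7%, background 27.6%) and 9 at the 3′ end (14.8%, background 8.67%). At the 5′ end, 35 genes had either factor (57.4%, background 39.7%) and 18 had both (29.5%, background 16.1%). JUNB-only regions lay at the 5′ end of 13 genes (21.3%, background 13.8%) and at the 3′ end of 2, RPS18 and RPL38 (3.28%, background 1.75%). Those 2 genes were also the ones with JUNB and no FOSL2 there (background 1.61%). FOSL2-only regions lay at the 5′ end of 7 genes (11.5%, background 12.8%) and at the 3′ end of 6 (9.84%, background 4.49%). In this class the members were thus not mostly bound at the 5′ end.

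The gap between the ribosomal protein genes and all genes at the 5′ end was not the same in every range of promoter CpG ratio. This is a description of small counts. Promoters of the 61 genes, taken from 250 bases before to 50 bases after the start, had a median ratio of observed to expected CpG of 0.907, against 0.765 over all 15101 promoters, and a median G+C content of 59.3% against 62.7%. In a comparison added after the data were seen, genes were set apart by whether their CpG ratio lay within the members' interquartile range (0.831 to 0.98), below it or above it. Within it, 12 of 31 ribosomal protein genes (38.7%) had a JUNB region within 1 kb of the 5′ end, against 38.3% of all 3809 genes, and 9 (29.0%) a FOSL2 region, against 35.4%. Below it, the JUNB count was 10 of 15 (66.7%), against 21.4% of 9092 genes, and the FOSL2 count 6 (40.0%), against 22.6%. Above it, 8 of 15 (53.3%) had JUNB, against 38.9% of 2200 genes, and 8 had FOSL2, against 34.7%. The JUNB share was thus near that of all genes in the middle range, which held the most members, and above it in the outer ranges with 15 members each. The FOSL2 share was below that of all genes in the middle range and above it in the outer ranges. Members with a JUNB region at the 5′ end and those without had median CpG ratios of 0.902 and 0.907. The outer ranges are open-ended, so ribosomal protein genes and all genes in the same range can differ in CpG ratio. RPL6, at a ratio of 0.17, was placed by a start 7393 bp from its annotated end. The part of base composition in these shares was not tested.

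At the 5′ end, summits clustered just upstream of the start. Of 31 JUNB regions nearest a 5′ end, 28 covered the end itself, 22 had their summit within 200 bp of it, and 24 had the summit upstream. The median distance from summit to end was 96 bp (12 to 1008 bp). Of 24 FOSL2 regions, 21 covered the end, 17 had the summit within 200 bp and 19 had it upstream, with a median distance of 150.5 bp (13 to 1389 bp). At the 3′ end, 1 of 6 JUNB regions and 1 of 10 FOSL2 regions covered the end, and the median distances were 454.5 and 823.5 bp. All these regions had been selected as lying within 1 kb of an end. Their positions were not counted for all genes, so whether ribosomal protein genes differ in them is unknown. In the 26 shared JUNB regions within 1 kb of a member, the summits of the paired regions lay a median of 53.5 bp apart, against 31 bp over all 30802 shared autosomal JUNB regions.

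**Figure D2:**
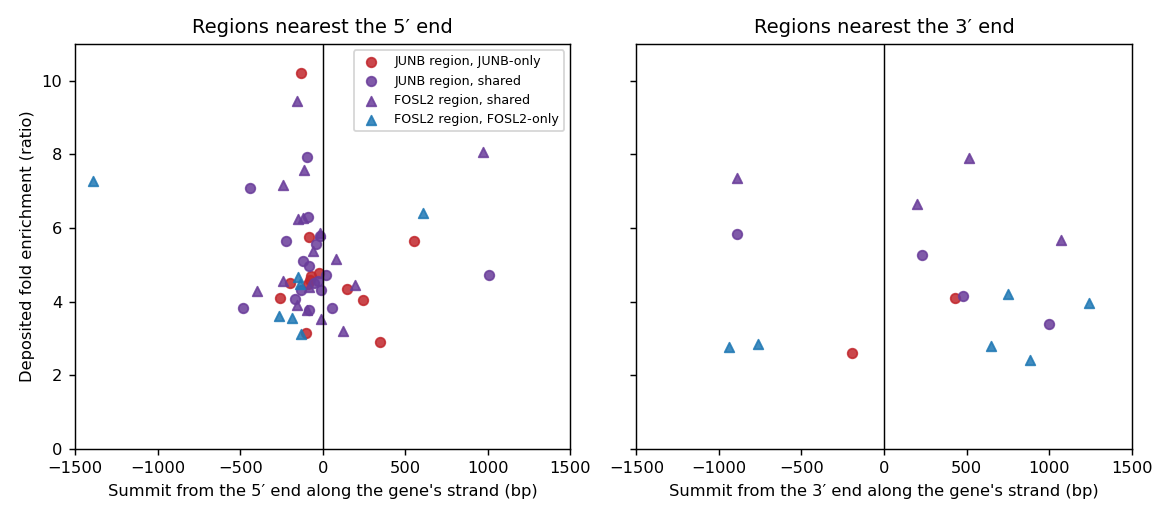
Fold enrichment (vertical axis, ratio) against the position of the summit from the 5′ end (left) or 3′ end (right) along the gene's strand (horizontal axis, bp), for regions within 1 kb of the 61 ribosomal protein genes with a strand. Circles are JUNB regions and triangles FOSL2 regions, coloured by class, and most points at the 5′ end lie within 200 bp upstream of it, whereas those at the 3′ end are scattered. Regions of all genes are not drawn.

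A pyrimidine run at the annotated start stood in most of the promoters, with and without JUNB. A run of at least 6 pyrimidines that holds a base within 5 bases of the annotated start was present in 49 of 61 promoters (80.3%), against 22.1% of all promoters. Such a run is a stretch of letters near the start and not an identified TOP tract. It was found in 23 of the 30 promoters with a JUNB region within 1 kb of the 5′ end (76.7%) and in 26 of the 31 without one (83.9%). Over all genes, 26.9% of those with such a run and 28.6% of those without had a JUNB region at the 5′ end. The starts of RPLP0 (the scaffold of the ribosomal stalk), RPSA (a small-subunit protein also known as the laminin receptor), RPS27 and RPL22 show such a run. They are printed 5′ to 3′ from 20 bases before the start to 20 bases from it, from RefSeq on GRCh38.p14, with the pyrimidine run in capitals.
RPLP0: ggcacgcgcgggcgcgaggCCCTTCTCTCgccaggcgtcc
RPSA: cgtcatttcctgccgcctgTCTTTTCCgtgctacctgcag
RPS27: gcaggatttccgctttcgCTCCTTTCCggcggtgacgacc
RPL22: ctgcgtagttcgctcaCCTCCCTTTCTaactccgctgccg
The windows are chr12:120201092-120201131, minus strand, chr3:39406700-39406739, plus strand, chr1:153990742-153990781, plus strand and chr1:6199576-6199615, minus strand. JUNB summits lay 170 bp upstream of the start of RPLP0, 21 bp inside RPSA, 88 bp upstream at RPS27 and 81 bp upstream at RPL22.

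The AP-1 sequence was rare in these promoters. TGANTCA, read on both strands, was present in 2 of 61 (3.28%, against 5.64% of all promoters), RPL24 and RPL6, whose table start lies 7393 bp from the gene's annotated end, and TGACGTCA in 3 (4.92%, against 2.62%), RPL3, RPL18 and RPLP2. Of the 30 promoters with a JUNB region at the 5′ end, 1 held TGANTCA and 2 held TGACGTCA. Over all genes, promoters with TGANTCA had a JUNB region at the 5′ end in 33.3% of 852 cases and a FOSL2 region in 43.1%, and those with TGACGTCA in 46.8% and 49.6% of 395. The NF-Y sequence CCAAT was present in 23 of 61 promoters (37.7%, against 36.1%), the core GGAAG bound by ETS factors in 57 (93.4%, against 73.8%), the NRF1 palindrome in 7 (11.5%, against 8.65%) and TATAAA in 6 (9.84%, against 9.83%). Motifs were searched on both strands and overlaps between them were kept. A match is a stretch of letters in the promoter window and not a measured site. The bound regions themselves were not searched, and some of their summits lay outside the window. These counts therefore do not show how many bound regions hold a motif.

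The palindrome bound by the factor BANP was present in 4 of 61 promoters (6.56%), against 102 of 15101 (0.675%). RPL26 and RPS19 are named for these letters and RPL3 for TGACGTCA, a choice made after the data were seen. It stood in RPL17 and RPL26, which had a JUNB-only region at the 5′ end, and in RPS6 and RPS19, both without a region within 10 kb. The same letters thus occurred in the gene with the highest JUNB value and in genes without a region. Of all 102 genes with these letters, 45.1% had a JUNB region at the 5′ end and 20.6% a JUNB-only region. All 4 promoters are printed from 250 bases before to 20 bases from the start, with the palindrome in capitals.
RPL17: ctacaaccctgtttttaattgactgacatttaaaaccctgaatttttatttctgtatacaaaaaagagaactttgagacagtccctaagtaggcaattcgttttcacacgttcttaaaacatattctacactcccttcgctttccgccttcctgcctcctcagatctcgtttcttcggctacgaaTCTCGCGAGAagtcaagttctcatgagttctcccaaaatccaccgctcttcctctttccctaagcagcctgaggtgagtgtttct
RPL26: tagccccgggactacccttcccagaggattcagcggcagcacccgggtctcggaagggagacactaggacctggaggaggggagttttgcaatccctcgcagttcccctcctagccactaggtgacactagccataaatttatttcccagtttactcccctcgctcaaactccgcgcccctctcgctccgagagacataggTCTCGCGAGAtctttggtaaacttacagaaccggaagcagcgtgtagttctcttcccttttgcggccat
RPS6: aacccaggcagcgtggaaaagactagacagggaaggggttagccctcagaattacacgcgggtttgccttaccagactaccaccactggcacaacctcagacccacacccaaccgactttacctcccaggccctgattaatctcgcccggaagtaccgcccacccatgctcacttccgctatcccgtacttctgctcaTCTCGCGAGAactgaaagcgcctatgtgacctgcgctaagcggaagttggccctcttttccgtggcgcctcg
RPS19: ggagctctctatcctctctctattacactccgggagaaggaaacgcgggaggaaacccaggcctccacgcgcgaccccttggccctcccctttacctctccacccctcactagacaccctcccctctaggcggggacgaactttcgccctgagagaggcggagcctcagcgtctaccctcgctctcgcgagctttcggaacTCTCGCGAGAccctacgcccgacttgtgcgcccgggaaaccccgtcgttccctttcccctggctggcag
The windows are chr18:49492446-49492715, minus strand, chr17:8383174-8383443, minus strand, chr9:19380217-19380486, minus strand and chr19:41860005-41860274, plus strand.

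The highest JUNB value at the ribosomal protein genes was that of 1 JUNB-only region, at RPL17. RPL17, which encodes a large-subunit protein near the exit of the peptide tunnel, had a JUNB region with a fold enrichment of 10.2 and a −log10 q of 159 on chromosome 18 from 49491845 to 49493445, with its summit 132 bp upstream of the start. This value was at or above 97.8% of the JUNB list. No FOSL2 region lay within 1 kb, and the highest FOSL2 value within 10 kb was 4.84. The readthrough gene RPL17-C18orf32 shares this end, so the region belongs to both annotations. The next JUNB-only regions were at RPS20 (6.51, summit 30 bp from the end), RPL22 (5.74, 81 bp), RPL15 (5.65, 555 bp inside the gene), RPL37A (4.77, 21 bp) and RPS9 (4.68, 70 bp). The remaining ones ran down to 2.60 at the 3′ end of RPL38.

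As a class, the 18 JUNB-only regions had a median fold enrichment of 4.40 (interquartile range 4.06 to 4.75), against 3.77 (3.09 to 4.45) for the 2515 JUNB-only regions within 1 kb of all protein-coding genes. Their median width was 753 bp, against 508 bp. Medians of the shared regions were below those of all genes. JUNB values had a median of 4.72 in 26 regions, against 4.86 in 2997, and FOSL2 values a median of 5.30 in 25 regions, against 6.09 in 3095. FOSL2-only regions had a median of 3.78 in 16 regions, against 4.36 in 2834. All-gene values include the ribosomal protein genes, and none of these differences was tested.

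**Figure D3:**
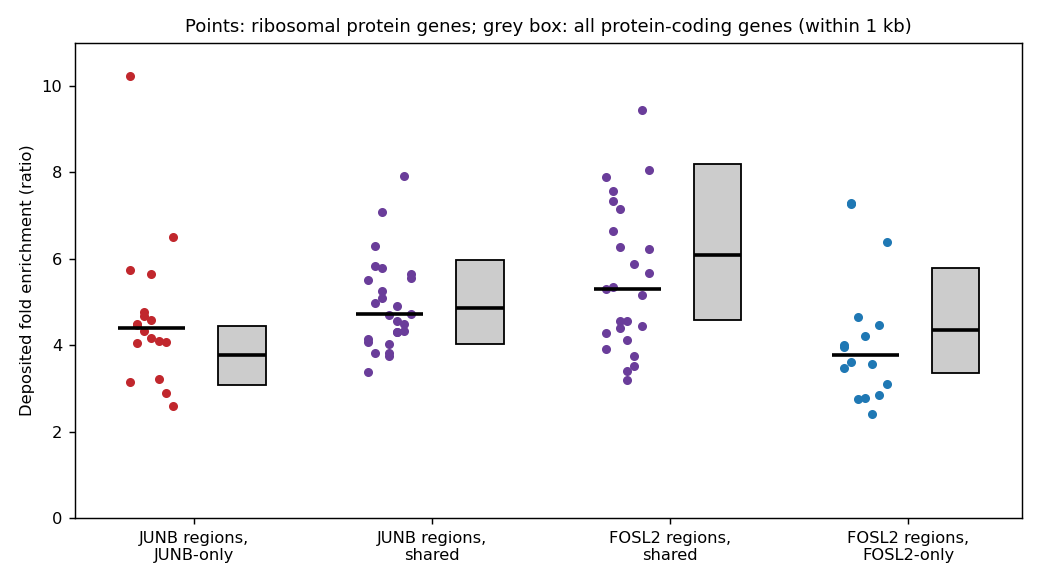
Deposited fold enrichment (vertical axis, ratio) of each region within 1 kb of a ribosomal protein gene (points, with the median as a line), beside the interquartile range and median of the regions within 1 kb of all protein-coding genes (grey boxes), for 4 kinds of region. The JUNB-only points have a median of 4.40, above the box's line at 3.77, and the other kinds have medians below those of their boxes.

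Among shared regions within 1 kb the highest pair was at RPL24, which encodes a large-subunit protein at a bridge between the subunits. There JUNB had a fold enrichment of 7.92 (summit 96 bp upstream of the start) and FOSL2 9.44 (159 bp upstream), at or above 88.0% and 85.9% of their lists. Its promoter was the one with TGANTCA among those with a region, and the sequence is printed in capitals on a window of 270 bases ending 20 bases after the start, chr3:101686699-101686968, minus strand. The capitals lay 137 bp from the JUNB summit and 74 bp from the FOSL2 summit.
RPL24: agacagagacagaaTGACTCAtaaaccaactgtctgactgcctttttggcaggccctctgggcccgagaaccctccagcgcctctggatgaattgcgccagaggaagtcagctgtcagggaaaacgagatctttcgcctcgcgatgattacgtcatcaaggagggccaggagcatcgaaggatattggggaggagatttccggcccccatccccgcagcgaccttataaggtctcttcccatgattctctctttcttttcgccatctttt

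By JUNB value, next came RPL18 (JUNB 7.08, FOSL2 5.36), RPS27 (6.29 and 7.57), RPL27A (5.84 and 7.35), RPS7 (5.79 and 4.41) and RPS3A (5.65 and 6.23). At RPL27A the pair lay 889 and 891 bp inside the 3′ end, and at the other genes named it lay at the 5′ end. At RPL18 the summits were 380 bp apart, with JUNB 441 bp and FOSL2 61 bp upstream, and an end of SPHK2, a sphingosine kinase gene, lay within 1 kb of both regions. At RPS27 the regions also lay within 1 kb of an end of RAB13. RPL5, a large-subunit protein that with RPL11 carries the free ribosomal RNA complex that restrains MDM2, had a pair of 5.51 and 5.30 with summits 46 and 30 bp from its end. An end of DIPK1A lay within 1 kb of both of these RPL5 regions. RPL11 was without a region within 10 kb. RPSA had a pair of 4.71 and 4.55.

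TGACGTCA was found in promoters of each class. RPL3, a large-subunit protein close to the catalytic centre, had a JUNB-only region of 4.59 with its summit 80 bp upstream, 78 bp from the match. At RPL18 the match was 388 bp from the JUNB summit and 8 bp from the FOSL2 summit. RPLP2, a stalk protein, had a FOSL2-only region of 4.47 with its summit 139 bp upstream, 50 bp from the match. The promoters are printed as before with TGACGTCA in capitals.
RPL3: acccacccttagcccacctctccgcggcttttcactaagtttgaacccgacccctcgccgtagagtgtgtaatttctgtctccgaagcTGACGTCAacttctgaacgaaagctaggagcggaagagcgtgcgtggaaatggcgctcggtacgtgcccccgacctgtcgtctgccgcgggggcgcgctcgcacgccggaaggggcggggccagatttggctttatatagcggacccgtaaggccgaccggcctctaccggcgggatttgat
RPL18: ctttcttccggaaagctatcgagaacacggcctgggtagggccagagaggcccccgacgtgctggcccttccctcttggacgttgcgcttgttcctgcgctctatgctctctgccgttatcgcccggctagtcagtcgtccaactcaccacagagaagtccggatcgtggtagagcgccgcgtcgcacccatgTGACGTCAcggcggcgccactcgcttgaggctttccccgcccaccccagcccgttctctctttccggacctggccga
RPLP2: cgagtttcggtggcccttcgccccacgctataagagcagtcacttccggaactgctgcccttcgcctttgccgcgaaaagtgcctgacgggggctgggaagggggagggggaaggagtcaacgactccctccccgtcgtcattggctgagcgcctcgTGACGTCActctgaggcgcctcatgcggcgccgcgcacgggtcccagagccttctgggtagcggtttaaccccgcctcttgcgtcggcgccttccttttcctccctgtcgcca
The windows are chr22:39319604-39319873, minus strand, chr19:48619159-48619428, minus strand and chr11:809717-809986, plus strand.

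High FOSL2-only values within 1 kb were found at RPL13 (7.28), RPLP1 (6.40), RPS14 (4.66), RPLP2 (4.47) and RPL26 (4.21). The regions at RPLP2 and RPL26 also lay within 1 kb of an end of PIDD1 and KRABD2, and the RPL13 region had its summit 1389 bp upstream of the start. RPS14 encodes the small-subunit protein whose loss of a copy underlies the anaemia of the 5q deletion syndrome. RPLP0, RPLP1 and RPLP2 form the stalk, the flexible arm that recruits elongation factors. RPLP0 had JUNB regions of 4.72 and 4.08 within 1 kb and a FOSL2 region of 8.06. Neither RPLP1 nor RPLP2 had a JUNB region within 1 kb, and their JUNB values within 10 kb were 5.09 and 5.43.

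Some genes carried regions of 2 classes within 1 kb. RPL22, RPL26 and RPL19 each had a JUNB-only and a FOSL2-only region. At RPL22 and RPL26 JUNB lay at the 5′ end (5.74 and 4.11) and FOSL2 at the 3′ end (3.95 and 4.21), and at RPL19 both lay at the 5′ end, with JUNB (2.90) 348 bp inside and FOSL2 (3.57) 185 bp upstream. RPL38, which in mouse is known for its role in the translation of Hox mRNAs, had a shared region at the 5′ end (JUNB 4.97, FOSL2 3.91) and a JUNB-only region at the 3′ end (2.60). RPL13 and RPL27 had shared regions at the 5′ end (JUNB 4.33 and 5.55) and FOSL2-only regions besides, and RPL27 had a shared region beyond its 3′ end as well (JUNB 3.38, FOSL2 5.68).

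**Figure D4:**
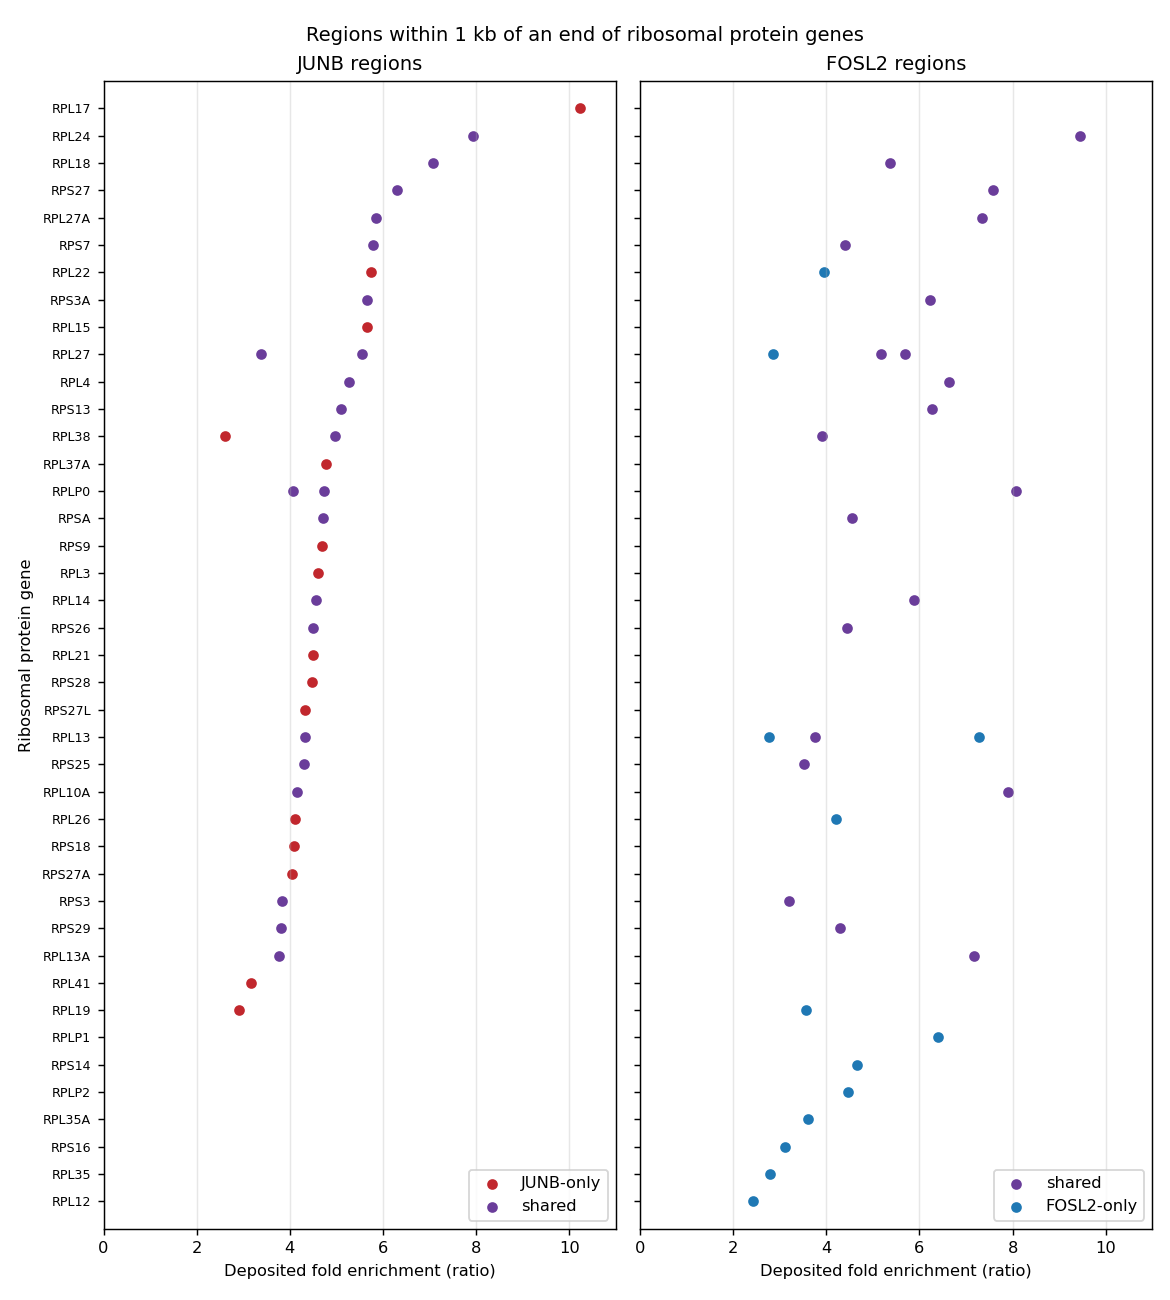
Deposited fold enrichment (horizontal axes, ratio) of every JUNB region (left) and FOSL2 region (right) within 1 kb of an end, for the 41 ribosomal protein genes with a strand and at least 1 such region (rows, ordered by JUNB value). RPL17 at 10.2 leads the JUNB regions and RPL24 at 9.44 the FOSL2 regions, and rows with a red point and no point on the right are genes with JUNB alone.

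A region near an end can belong to a neighbour. Of the 44 JUNB entries within 1 kb of a member, 10 also lay within 1 kb of an end of another protein-coding gene, and of the 41 FOSL2 entries 12 did. In a count made after the data were seen, regions within 1 kb of the end of any other protein-coding gene were left out for every gene, with readthrough genes set aside. Then 31 of 78 genes (39.7%) had a JUNB region within 1 kb, against 21.7% of 19022 genes, and 25 (32.1%) a FOSL2 region, against 23.5%. Within 10 kb the shares were 57.7% for JUNB, against 48.3%, and 67.9% for FOSL2, against 64.7%. RPL3L and RPS2 lie 7369 bp apart and can share regions within 10 kb.

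Both subunits were represented. Large-subunit genes had a JUNB region within 1 kb in 21 of 43 cases (48.8%) and a FOSL2 region in 20 (46.5%). Small-subunit genes had one in 18 of 30 (60.0%) and 15 of 30, with background shares of 30.2% and 31.9% as above. A FOSL2-only region was found at 10 of the 43 large-subunit genes (23.3%) and at 3 of the 30 small-subunit genes (10.0%). The share over all genes was 15.8%. Among genes with a region, the median of the highest JUNB value was 4.77 in large-subunit and 4.48 in small-subunit genes. Over all genes it was 4.43. For FOSL2 these medians were 5.52 and 4.45, against 5.44 over all genes. Genes that held a snoRNA gene had a JUNB region in 15 of 27 cases (55.6%) and those without in 26 of 51 (51.0%). Whether these groups differed was not tested.

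The L-suffixed paralogs are additional copies, several of them restricted to a tissue. RPS27L, a p53-induced copy of RPS27, had a JUNB-only region of 4.33 with its summit 148 bp inside the gene. RPL39L, a testis-enriched copy, had a JUNB-only region of 3.23, and RPL3L, a copy expressed in muscle, had a FOSL2-only region of 4.01 within 1 kb of an end that lies beside MSRB1. RPL36AL had none within 1 kb, with values of 3.20 (JUNB) and 5.49 (FOSL2) within 10 kb. RPL10L, a testis-specific retrogene, had none within 10 kb.

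For FOSL2, the strongest regions within 10 kb of a member were farther than 1 kb from it. At RPL29 a shared pair upstream of the gene had 7.42 for JUNB and, at 1861 bp, 12.9 for FOSL2, which was at or above 99.1% of the list. RPL15 had a FOSL2-only region of 10.96 at 3718 bp from its 3′ end, and RPL39L a shared pair with 6.72 (JUNB) and, at 8142 bp from an end, 10.9 (FOSL2). Beyond 1 kb, the highest JUNB values were 7.78 at 7823 bp from RPL18, 7.60 at 1327 bp from RPL35 and 7.59 at 2069 bp from RPL39L, all shared. Over genes with a region within 10 kb, the highest value per gene had a median of 4.74 for JUNB and 5.999 for FOSL2, against 5.07 and 7.005 over all protein-coding genes.

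Without any region within 10 kb were 10 genes (12.8%, against 23% of all protein-coding genes), among them RPL7A, RPL10L, RPL11, RPL31, RPL34, RPS6, RPS19 and RPS23. RPS6 encodes the small-subunit protein phosphorylated by S6 kinases downstream of mTOR, and RPS19 the one most often mutated in Diamond-Blackfan anaemia. Each list holds what passed the authors' calling, so absence from a list does not show absence of binding. The depth that would set a limit is unknown.

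Related genes were set beside these, and those named here were chosen after their values were seen. Mitochondrial ribosomal protein genes, whose products form the separate ribosome of mitochondria, had JUNB within 1 kb in 29 of 77 cases (37.7%) and a FOSL2 region in 33 (42.9%). Ribosome assembly genes had one in 13 of 24 (54.2%) and 11 (45.8%), with NOLC1 (6.22 and 9.42) and RRN3 (5.81 and 5.15) highest for JUNB and none within 10 kb at FBL and NCL. Translation factors and other TOP genes had one in 8 of 22 (36.4%) and 12 (54.5%). In this group the JUNB values of EEF1A1 (12.6) and EEF1D (11.7), subunits of the elongation factor that delivers aminoacyl-tRNA, were above that of every cytosolic ribosomal protein gene, as was that of MRPL28 (13.9) among the mitochondrial ones. FAU, which encodes a ribosomal protein fused to a ubiquitin-like protein, had a FOSL2 region within 10 kb and no JUNB region. Paralogs outside the naming rule, RPL7L1 (6.91 and 10.7) and RPL22L1 (5.40 and 5.55), had regions of both factors within 1 kb, and RPL26L1 had FOSL2 alone (3.04). No difference between the sets was tested.

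Ribosomal protein pseudogenes are mostly intronless copies that share coding sequence with these genes and not their promoters. Of 1869 on the autosomes, 89 (4.76%) had JUNB within 1 kb and 159 (8.51%) a FOSL2 region, against 4.41% and 8.11% of all 15521 pseudogenes. JUNB-only regions lay at 17 of them (0.91%), against 1.13% of all pseudogenes.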

How the data were processed

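ChIP-seq of JUNB and FOSL2 in HaCaT cells was deposited as 1 narrow-peak list per factor, each standing for 3 libraries. The submitters' processing notes give the build hg38 and list MACS2 and deepTools beside Bowtie2, Picard 1.89 and SAMtools 1.8. Their order and options, the control and the rule for combining libraries: not given in the sources used here. The deposited columns are a whole-number score, a fold enrichment (ratio), −log10 p (not used here), −log10 q and a summit offset, as the authors' peak caller wrote them. Where a list contains a region, its width and value depend on that caller and on a depth that is unknown.

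Gene positions came from RefSeq on GRCh38.p14, which shares chromosome coordinates with hg38, and strand and promoter sequence from its promoter table, which matched 61 of 78 genes. Coordinates count from 1. Nearness was taken from the closest base of a region to either gene end, at 1 kb or 10 kb. Classes needed 1 bp of overlap. Shares carry 95% Wilson intervals in the comparison of settings only, and medians carry intervals there too. The 78 genes are all that the rule gave. The intervals are thus only a yardstick for moves between settings and measure no replicate error. No test was run. Genes were named as the 6 highest in each class within 1 kb, the 3 highest per factor beyond 1 kb, those with 2 classes or no region, and 8 fixed names. Some genes that this rule names are not reported here by name, and counts include them. The length, snoRNA, neighbour, CpG and pyrimidine-run splits, and which promoters are printed, were chosen after the data were seen. The members and lists were chosen with earlier results of these data known. The overlap and distance code was checked on simulated regions. Computation used Python 3.11.15, pandas 2.3.3, numpy 2.4.6 and scipy 1.17.1. EIF2S3 of the translation list lies outside the autosomes and was left out.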

Additional observations from a re-analysis of the deposited data

How the results depend on the processing

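Of 115 recomputed values, 93 stayed within the counting interval of the value reported and 22 moved. Requiring a reciprocal overlap of 50% or summits within 100 bp redefines the classes only. It cannot alter the share with any JUNB or any FOSL2 region, and those unchanged shares are among the 93. The intervals are also wide: that of the FOSL2 share within 1 kb ran from 35.5% to 57.1%. Keeping only the 10000 regions of highest fold enrichment in each list moved the shares of ribosomal protein genes with a region within 1 kb to 5.13% for JUNB and 0.0% for FOSL2, those within 10 kb to 10.3% and 8.97%, and the JUNB-only, shared and FOSL2-only shares within 1 kb to 5.13%, 0.0% and 0.0%. All genes then stood at 3.85% and 2.9% within 1 kb, at 15.3% and 14% within 10 kb, and at 2.3%, 1.56% and 1.22% for the classes. The median of the highest JUNB value was then 7.5 over 4 genes, and JUNB-only regions made up 100.0% of 4 regions, against 44.1% of those of all genes. With limits of 2500 bp and 25 kb, the FOSL2 share was 57.7% (all genes 44.6%) and the FOSL2-only share 28.2% (25.4%) within the near limit, and the shares within the far limit were 89.7% for JUNB (74.1%) and 94.9% for FOSL2 (86.8%). With limits of 500 bp and 5 kb, the FOSL2 share within the far limit was 67.9%, against 57.6% of all genes. A −log10 q of at least 10 gave JUNB shares of 41.0% within 1 kb and 62.8% within 10 kb, against 20.7% and 43.7% of all genes. The alternatives that follow were added after the data were seen. Without regions narrower than 400 bp, the JUNB share within 10 kb was 64.1%, against 47.4% of all genes. Without regions within 1 kb of the end of a gene that is no member, the shares within 1 kb were 37.2% for JUNB, 30.8% for FOSL2 and 20.5% for shared regions, and those within 10 kb were 56.4% for JUNB and 66.7% for FOSL2. This removal kept regions near other members and counted readthrough genes of other genes as neighbours. Applied gene by gene to members and all genes alike, it gave 39.7% against 21.7% for JUNB and 32.1% against 23.5% for FOSL2 within 1 kb. The cause of the other moves was not tested.

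Each factor had 1 list for its 3 libraries, so leaving out a library was not possible and no spread between libraries is known. No paired analysis was possible because the lists carry no replicate numbers. Absence from a list has no limit at an unknown depth. Lists of unequal length and unknown depth also limit any comparison of the factors.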
